A study of Arabidopsis thaliana with 2 samples.

Results

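The nuclear photosystem and antenna genes of Arabidopsis thaliana were examined as 34 loci, found by locus tag in the RefSeq TAIR10.1 annotation: the 4 antenna genes LHCA1 to LHCA4 of photosystem I, 8 antenna genes from LHCB2 to LHCB6 of photosystem II, 12 PSA genes for photosystem I subunits and 10 PSB genes for photosystem II subunits. A read belonged to a locus when its exons overlapped the exons of that locus on the same strand more than those of any other locus. All 34 loci carried reads, among 20996 nuclear genes with reads, and they held 7307 of 267716 aligned reads in replicate 1 and 7066 of 255215 in replicate 2. The libraries came from inflorescences with unopened floral buds of wild-type Col-0 plants, with 1 condition, no treatment and 2 biological replicates. Each was prepared from 10 µg of total RNA, with an RNA integrity number of 9.0 in replicate 1 and 9.2 in replicate 2. They were PacBio full-length non-chimeric (FLNC) cDNA reads, each with a poly(A) tail and both library primers, so that 1 read stands for 1 cDNA molecule from its 5′ to its 3′ end. There was no second condition, so the comparisons lie between genes, gene copies and replicates.

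Photosystem II splits water and photosystem I reduces ferredoxin, and each has a reaction core encoded largely in the plastid. The nucleus encodes the chlorophyll-binding antenna proteins (LHCA around photosystem I and LHCB around photosystem II) and many smaller subunits, which are imported after synthesis in the cytosol. In flowers these genes are known to be active in green tissue, mainly sepals and young carpels, and a bulk library cannot tell fewer green cells from less of the RNA per cell.

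The reads carried the marks of floral buds. All 5 floral organ genes examined had reads (37 to 160 over both replicates) and so did all 3 tapetum genes (53.5 to 98). Of the 3 root genes, MRH6 had none and COBL9 and LRP1 had 2 and 6, and the seed storage genes CRU3 and SESA1 had none. Across 9936 genes with at least 10 reads, counts differed between replicates by more than counting noise alone gives (chi-square over degrees of freedom 1.69), so the replicates were kept as separate samples. The same statistic was 0.623 over the 34 photosystem genes.

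These genes lay among the most-read nuclear genes: 11 of 34 ranked in the first 100 and all of them in the first 1000, from rank 14 to rank 826. Scaled to 1000000 gene-assigned reads (RPM), replicate 1 gave them 28515 and replicate 2 gave 28992, a mean of 28753 ± 338 (SD, n = 2). Fractional counts, taken here as reads that aligned to several places, made up 0.098% and 0.0848% of the member reads, so near-identical copies shared few reads here. A read that aligned to the wrong copy as its only place would not be seen in that share.

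The photosystem I antenna genes were read deeply and evenly. LHCA4 (AT3G47470) was the most-read of all 34 genes, with 574 reads in replicate 1 and 559 in replicate 2. LHCA1 (AT3G54890) had 425 and 400, and LHCA3 (AT1G61520) had 390 and 345. LHCA2 (AT3G61470), the least-read of the 4, still had 271 and 281 reads, or 1105 ± 67.5 RPM (SD, n = 2), above the median of 651 RPM over all 34 genes.

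The photosystem II antenna was more uneven. LHCB3 (AT5G54270), a component of the antenna trimers, had 506.5 and 496 reads. LHCB5 (AT4G10340) and LHCB6 (AT1G15820), which encode the minor antenna proteins CP26 and CP24 next to the core, had 423.5 and 390 reads and 346 and 291 reads. The copies of LHCB2, whose protein is phosphorylated when antenna moves between photosystems, and of LHCB4, the minor antenna protein CP29, had fewer each. LHCB2.3 (AT3G27690) was the least-read antenna gene, with 65 and 64 reads, or 258 ± 6.33 RPM, against 2006 ± 41.5 RPM for LHCB3 (SD, n = 2).

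Photosystem I subunit genes stood lower as single genes. PSAF (AT1G31330), which docks plastocyanin, led them with 280 and 283 reads. Among the membrane subunits at the edge of the complex, PSAL had 164 and 173 reads, PSAG 162 and 131, and PSAO 149 and 137.5. PSAK, another of them, had 116 and 121 reads, and PSAN, a lumenal subunit, had 115.5 and 104. The remaining 6 PSA genes are copies in pairs, and PSAE2 (AT2G20260) was the least-read of all 34 genes, with 47 and 48 reads, or 190 ± 9.58 RPM (SD, n = 2).

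PSBO1 and PSBR led the photosystem II subunit genes. PSBO1 (AT5G66570), the manganese-stabilising protein, had 514.5 and 496 reads, second only to LHCA4 in mean RPM. PSBR, a further subunit at the lumenal face, had 396 and 394.5 reads, and PSBP1, an extrinsic protein of the oxygen-evolving complex, had 271 and 253.5. The small membrane subunits fell from PSBW (209 and 194) over PSBX (188 and 167) to PSBY (AT1G67740; 64.5 and 71), the least-read PSB gene. PSBS (NPQ4 in RefSeq), the sensor of non-photochemical quenching, had 164.5 and 151 reads. Divided by annotated spliced length, PSBR came first with 2018 RPM per kb, ahead of LHCA4 with 1751, so the first place depends on whether reads are set against length. The last place also depends on which length is used: PSAH1 was last per annotated kb (173) and PSBO2 per kb observed between main start and main 3′ site (253), and PSBR was first by both.

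**Figure D1:**
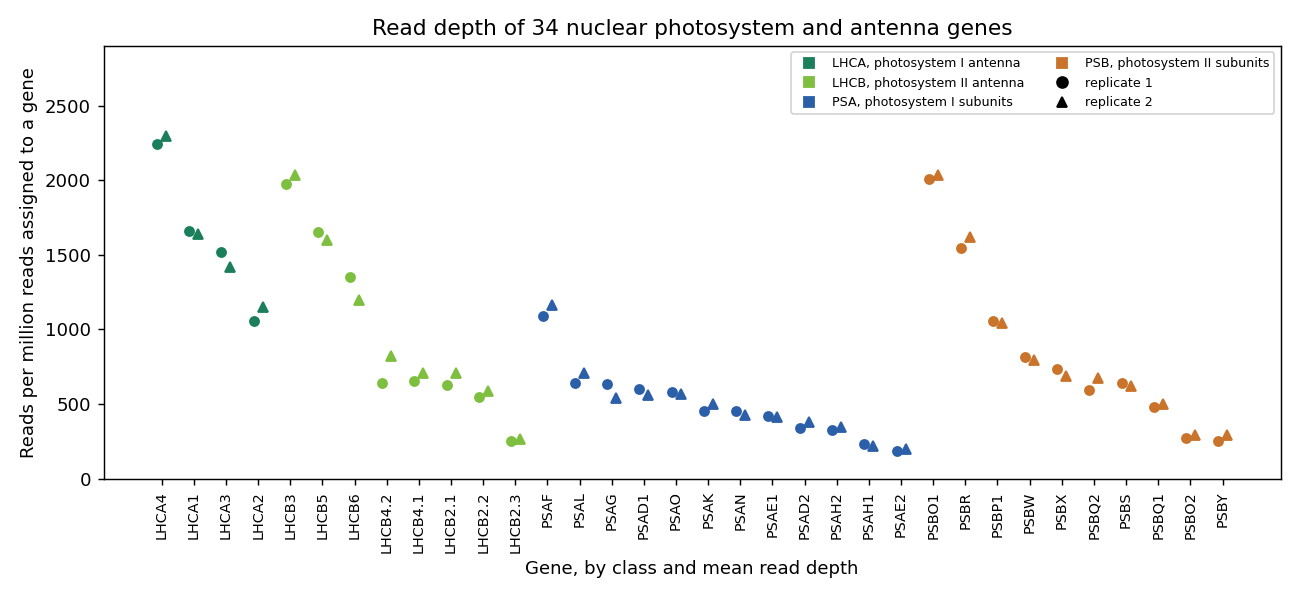
Read depth of each gene in both replicates (circles and triangles), in RPM on a linear axis, coloured by class. LHCA4 (mean 2267), PSBO1 (2021) and LHCB3 (2006) lie highest, and among the photosystem I subunit genes PSAF (1127) stands apart from the others.

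The replicates lay close together for every gene. The median difference between them was 1.06-fold and the largest 1.28-fold, in LHCB4.2 (642 and 821 RPM). None of the 34 genes differed 2-fold or more, where 11% of the 5508 nuclear genes with at least 20 reads did. The 34 genes carry more reads (a median of 325 over both replicates, against 36 over those genes), and counting error is smaller at that depth.

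Photosystem II genes were read more than photosystem I genes. The 16 photosystem I genes held 3183 and 3051 reads and the 18 photosystem II genes held 4124.5 and 4015, a ratio of 0.772 and 0.760 (mean 0.766 ± 0.00826, SD, n = 2). Photosystem I thus took 43.6% of member reads in replicate 1 (95% Wilson interval 42.4 to 44.7) and 43.2% in replicate 2 (42.0 to 44.3), intervals that cover counting error only. The ratio describes these 34 genes and not the whole antenna: the 5 LHCB1 genes, which are not among them, held 4811 and 4968 reads, and adding them to photosystem II gave a ratio of 0.348.

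The antenna and subunit genes examined here, which leave out LHCB1, shared the reads almost equally. The 12 antenna genes took 49.7% of member reads in both replicates (intervals 48.6 to 50.9 in each), although they are fewer than the 22 subunit genes. The ratio of antenna to subunit reads was 1.09 and 1.08 within photosystem I (LHCA to PSA) and 0.917 and 0.925 within photosystem II (LHCB to PSB). Among these genes the LHCA ratio was the higher one in both replicates. The LHCB1 genes alone held 4811 and 4968 reads, more than the LHCB genes counted here together. The antenna share and the LHCB to PSB ratio therefore do not describe the whole antenna, and both would be higher with LHCB1 added. Photosystem I was the lower in both parts: 1660 and 1585 LHCA reads against 1973 and 1929.5 LHCB reads, and a PSA to PSB ratio of 0.708 and 0.703. These are sums over 4 LHCA and 8 LHCB genes and over 12 PSA and 10 PSB genes. Per gene the antenna order turned, with a median member of 1559 RPM in LHCA and 705 RPM in LHCB, while the subunit medians were 457 RPM in PSA and 672 RPM in PSB.

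Of the protein families, 7 are encoded here by copies in 2 or 3 genes, and the share of each copy was similar in the replicates. PSBO showed the widest split: PSBO1 held 88.2% and 87.5% of the family's reads and PSBO2 (AT3G50820; 69 and 71 reads) the rest, a ratio of 7.22 ± 0.333 (SD, n = 2). The proteins encoded by this pair are 90.7% identical in aligned residues. PSAE1 (AT4G28750; 107 and 101 reads) held 69.5% and 67.9% against PSAE2, and PSAD1 (AT4G02770; 153 and 137 reads) held 63.8% and 59.6% against PSAD2 (AT1G03130; 87 and 93 reads). PSAD binds ferredoxin on the stromal side and PSAE helps to do so. PSAH2 (AT1G52230; 83 and 84 reads), a subunit where mobile antenna docks, held 58.5% (interval 50.2 to 66.2) and 61.2% (52.8 to 68.9) against PSAH1 (AT3G16140; 59 and 53.3 reads). For these 4 families the interval of the leading copy stayed above 50% in both replicates.

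In the PSBQ and LHCB4 pairs no copy's interval stayed above 50% in both replicates. The LHCB2 trio is given apart, since 50% is not its even split. PSBQ2 (AT4G05180; 152 and 165 reads), an extrinsic protein of the oxygen-evolving complex, held 55.3% (49.4 to 61.0) and 57.5% (51.7 to 63.1) against PSBQ1 (AT4G21280; 123 and 122 reads), so that the interval of replicate 1 includes an even split. LHCB4.2 (AT3G08940; 164.5 and 200 reads) held 49.6% and 53.8% against LHCB4.1 (AT5G01530; 167 and 172 reads), and the leading copy changed between replicates. Within LHCB2, LHCB2.1 (AT2G05100; 160 and 173 reads) held 43.9% and 45.5%, LHCB2.2 (AT2G05070; 140 and 143.5 reads) held 38.4% and 37.7%, and LHCB2.3 held 17.8% and 16.8%. The intervals of LHCB2.1 and LHCB2.2 overlapped in each replicate, and both lay above that of LHCB2.3.

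Sequence likeness of the copies was measured from the annotated coding exons. LHCB2.1 and LHCB2.2, which lie near each other on chromosome 2, encode proteins 97.7% identical and are 96.6% identical in coding sequence. LHCB2.3 on chromosome 3 is 95.5% and 94.7% identical to them as protein. The least alike pairs were PSAE (75.3%) and PSBQ (76.1%), and the remaining pairs were PSAD (93.3%), PSAH (91.7%) and LHCB4 (88.6%).

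**Figure D2:**
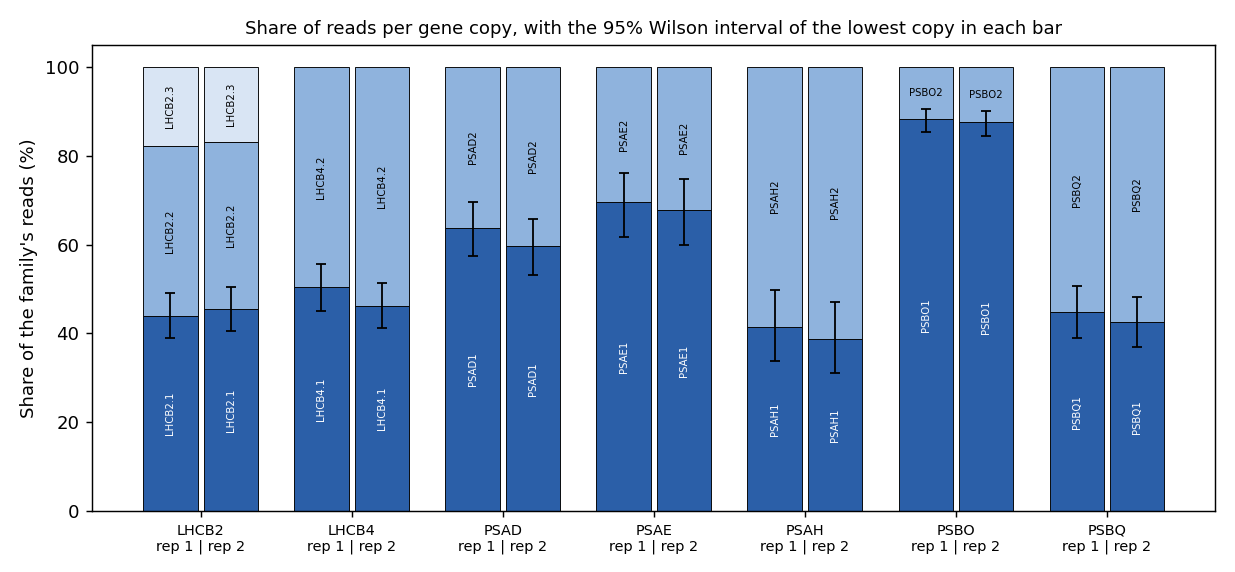
Share of each family's reads per gene copy in replicate 1 (left bar) and replicate 2 (right bar), with the 95% Wilson interval of the lowest segment. PSBO1 takes 88.2% and 87.5% of PSBO reads, while the LHCB4 boundary lies near the middle in both replicates.

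Capped starts were read from the reads whose 5′ label was called as a cap, that is, with an extra G that the genome does not encode next to the end. Such reads were 60.01% and 60.4% of member reads, 58.8% as a median over the 34 genes and also 58.8% over the nuclear genes with at least 20 reads. All 34 genes had at least 20 of them. The most-used capped start was the same nucleotide in both replicates in 29 of 34 genes and lay within 5 nt in 30.

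Those starts are given here for 9 genes, from 45 bases before to 5 bases after the most-used capped start (RefSeq TAIR10.1 genome, coding strand, 5′ to 3′). The first 3 are the genes with a TATA element, the next 3 had concentrated starts without one, and the last 3 had spread starts. The capital base near the 3′ end is the start itself, and a run of 6 capitals is a match to TATAAA or TATATA.
LHCB2.1: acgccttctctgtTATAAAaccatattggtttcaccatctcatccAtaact
LHCB2.2: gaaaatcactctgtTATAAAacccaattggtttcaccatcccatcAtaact
LHCB2.3: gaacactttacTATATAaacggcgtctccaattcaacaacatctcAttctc
LHCA1: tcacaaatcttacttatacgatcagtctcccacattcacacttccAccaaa
LHCB3: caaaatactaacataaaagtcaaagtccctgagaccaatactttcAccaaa
PSAD2: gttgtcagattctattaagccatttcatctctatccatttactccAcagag
PSAG: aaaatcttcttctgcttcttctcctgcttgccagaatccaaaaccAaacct
PSAE1: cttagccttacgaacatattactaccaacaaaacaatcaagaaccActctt
PSAL: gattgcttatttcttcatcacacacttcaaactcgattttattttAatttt
In LHCB2.1 and LHCB2.2 the element began 32 and 31 bases before the start, and in LHCB2.3 it began 34 bases before. The windows lie at chr2:1824387-1824437 (minus strand) for LHCB2.1, chr2:1800384-1800434 (minus strand) for LHCB2.2 and chr3:10255908-10255958 (plus strand) for LHCB2.3. The concentrated ones without the element lie at chr3:20340983-20341033 (minus strand) for LHCA1, chr5:22038312-22038362 (plus strand) for LHCB3 and chr1:754170-754220 (minus strand) for PSAD2. The spread ones lie at chr1:20803431-20803481 (minus strand) for PSAG, chr4:14203934-14203984 (minus strand) for PSAE1 and chr4:7521388-7521438 (plus strand) for PSAL. The windows of LHCA1, LHCB3 and PSAD2 hold no match, and were chosen here for their narrow starts. Over all nuclear genes the median share of capped starts within 5 nt of the main one was 83.3% in the 994 with the element and 51.0% in the 1995 without it, and over the photosystem genes it was 74.8% in the 3 with it and 60.9% in the 31 without it.

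Only these 3 of 34 genes (8.82%) had TATAAA or TATATA on the coding strand beginning 20 to 45 nt before the start, where 33.3% of 2989 nuclear genes with at least 20 cap-labelled reads did. With the 4 letters TATA alone, 11 of 34 genes (32.4%) had a match against 45.2% of all genes. The start base was A in 28 of 34 genes (82.4%, against 66.4% of all genes), and a pyrimidine stood before a purine in 33 of 34 (97.1%, against 92.5%). No gene had G before its start, in the members or in all 2989 genes, and a cap call needs a G that differs from the genome there.

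Antenna genes had narrower starts than most subunit genes. The share of cap-labelled reads within 5 nt of the most-used start was at least 60% in all 12 antenna genes and in 8 of 22 subunit genes, and under 50% in 12 subunit genes and in no antenna gene (both replicates pooled). Medians were 79.8% for LHCA, 76.2% for LHCB, 43.4% for PSA and 53.0% for PSB, beside 60% over all 2989 genes. Over the 979 genes with at least 50 cap-labelled reads, a depth that every antenna gene reaches, the median was 75.7%. This division was seen in the data and was not tested. The highest was LHCB3, with 90.7% in replicate 1 and 91.1% in replicate 2, and LHCA1 had 89.8% and 91.3%. At the other end PSAG had 18.0% and 20.7%, PSAL had 34.7% and 31.7%, and PSAE1 had 34.3% and 32.9%.

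Exceptions stood on both sides. PSAD2 (92.6% and 85.2%), PSBR (87.9% and 87.6%) and PSBX (88.7% and 83.6%) were as narrow as the antenna genes. LHCB6 was the broadest antenna gene, with 59.6% and 62.5%. Copies of a family could differ: PSAH2 had 78.0% and 76.6%, while PSAH1 had 50% and 35.7% on 60 cap-labelled reads in all. Among nuclear genes with at least 100 cap-labelled reads the median was 84.6% over 397 genes and 73.3% over the 28 photosystem genes that reach this depth, and 5 of those 28 lay above the median of all genes at this depth.

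**Figure D3:**
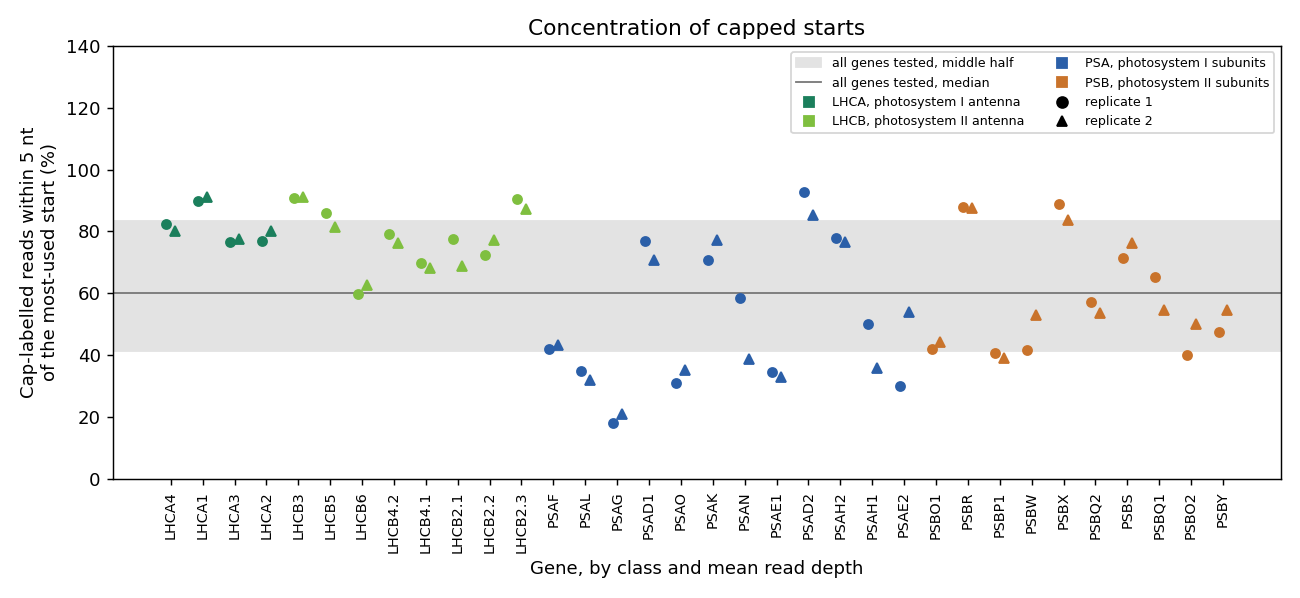
Share of cap-labelled reads within 5 nt of each gene's most-used capped start, in percent, for both replicates. The grey band runs from the lower to the upper quartile of 2989 nuclear genes, and the line is their median of 60%. Over the 979 genes with at least 50 cap-labelled reads the median is 75.7% (not drawn). The 12 antenna genes lie above that line apart from LHCB6 in replicate 1 (59.6%), and PSAG lies lowest.

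Several genes used a second start region, more than 20 nt from the first, for at least 10% of their cap-labelled reads in both replicates. There were 12 such genes of 34 (35.3%), 1 antenna gene (LHCB6), 7 PSA genes and 4 PSB genes, where 41.4% of 2988 nuclear genes with enough cap-labelled reads had a second region. Among genes with at least 50 cap-labelled reads it was 12 of 33 (36.4%) against 30.5% of 979, so the photosystem genes lay below the first of these shares and above the second. PSAH1 had the most even use, with 62.5% and 53.6% in the first region and 37.5% and 46.4% in one 31 nt downstream. PSAG held 38.2% and 39.02% in a region 42 nt downstream, and PSBW held 37.8% and 30.6% in one 40 nt downstream. In PSBY the region 26 nt downstream held 28.9% and 21.2%. In these 4 genes the most-used position of both regions lay before the annotated start codon, 80 and 38 nt before it in PSAG and 99 and 59 nt in PSBW. These are positions within regions merged over 20 nt, and not 2 fixed lengths of the 5′ untranslated stretch. In PSAG the most-used start of replicate 2 alone lay 42 nt downstream of the pooled one.

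In the other 8 genes the second region lay upstream of the first. It held 18.8% and 22.1% in PSAF, 23 nt upstream, and 19.2% and 19.7% in PSAO, 27 nt upstream. PSAH2 held 18% and 19.1% at 31 nt upstream, PSAN 14.3% and 21.4% at 45 nt, and PSBQ2 19.4% and 17.2% at 23 nt. LHCB6 held 13.7% and 14.1% at 30 nt upstream. PSBO2 (20% and 16.7% at 22 nt upstream) and PSAL (13.7% and 15.4% at 26 nt upstream) each had a further region past 10% as well, 21 nt downstream in PSAL (14.7% and 13.5%) and 73 nt upstream in PSBO2 (10% and 11.9%).

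**Figure D4:**
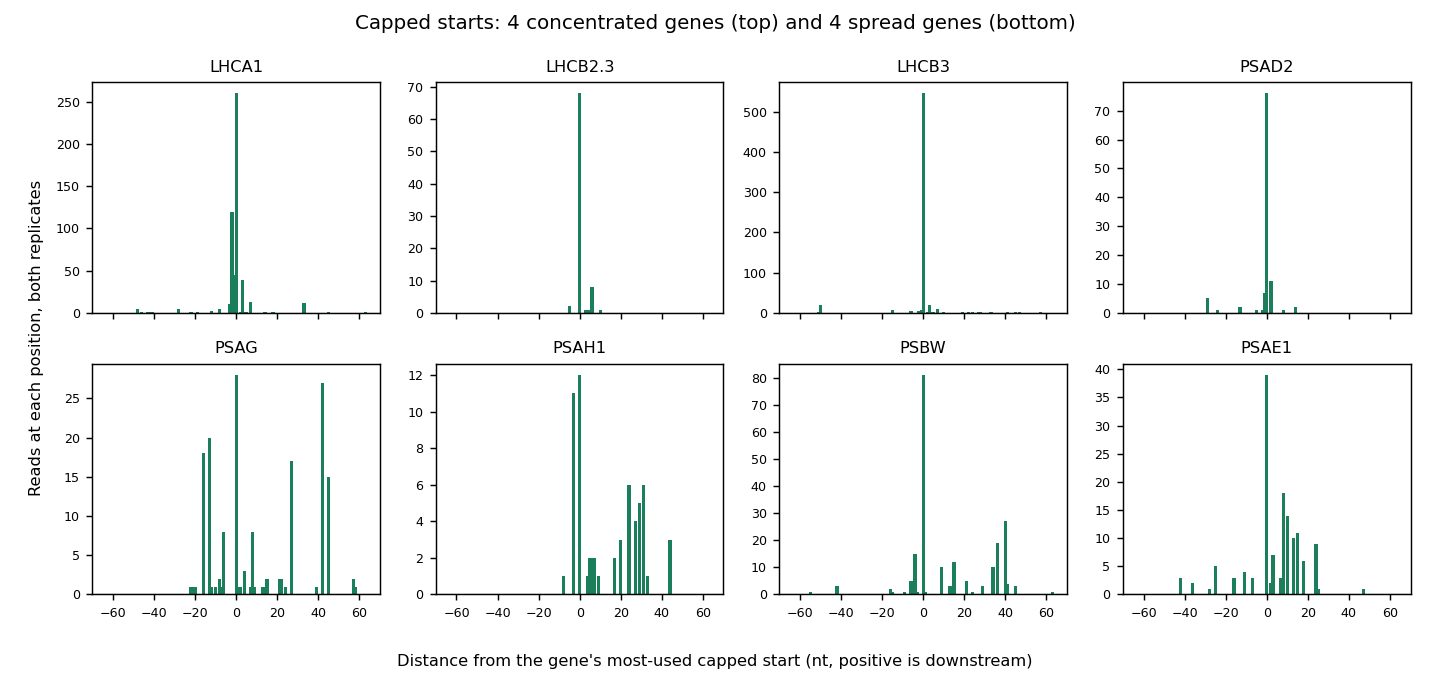
Cap-labelled reads at each position, both replicates summed, against the distance in nt from the gene's most-used capped start, for 8 genes picked after their values were seen. LHCA1, LHCB2.3, LHCB3 and PSAD2 show 1 narrow peak, while PSAG, PSAH1, PSBW and PSAE1 show many positions, with a second group 31 to 42 nt downstream in PSAH1, PSBW and PSAG.

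Capped starts also bear on which annotated start codon the reads could contain. The main start lay a median of 50 nt before the start codon (16 to 100 nt along the spliced RNA), and a median of 116.5 nt downstream of the nearest annotated 5′ end. Neither distance has a value over all genes beside it. PSAL (chromosome 4, 7521257-7522761) has an annotated transcript whose start codon, at position 7521283, lies 150 nt upstream of the main start at 7521433. None of 199 cap-labelled PSAL reads began upstream of that codon, which allows a share of up to 1.51%, while 192 of them began upstream of the start codon of the other transcript, at 7521469. LHCB2.3 has such a codon too, at 10255906 on chromosome 3. None of its 81 cap-labelled reads began upstream of it (up to 3.70%), and all 81 began upstream of the other codon at 10256002. For the remaining 32 genes, at least 97.8% of cap-labelled reads began upstream of every annotated start codon.

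In the 250 bases before the main start, a few known promoter elements were more frequent than in other genes. GATAAG, the I-box of light-regulated promoters, stood on either strand in 22 of 34 genes (64.7%, against 16.3% of 2989 genes), among them all 4 LHCA genes, 3 LHCB, 9 PSA and 6 PSB genes. CACGTG, the G-box, stood in 17 of 34 (50%, against 11.8%), and CCAAT in 29 (85.3%, against 52.4%). GATA, which GATAAG contains, stood in all 34 genes but also in 86.9% of all genes. These matches describe letters in a window, and nothing about binding was measured.

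Splicing was uniform. Reads with an annotated exon chain made up 88.7% and 90.2% of member reads, and 88.6% as a median over the 34 genes against 83.7% over the 5508 nuclear genes with at least 20 reads. LHCB4.2 had the highest share (97.0% and 98.0%) and PSAH1 the lowest (76.3% and 76.9%). Ends differed from the annotation: reads with the annotated chain and both ends within 100 nt of the annotated ones were 5.80% and 5.97%. In the libraries as a whole this share was higher, 19.7% in replicate 1 and 20.4% in replicate 2. The main 3′ site lay at a median of -112.5 nt from the nearest annotated 3′ end, where negative values lie inside the gene. No such distance over all genes stands beside it.

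There were 9 genes with annotated transcripts of unlike exon chains, and each used 1 chain almost alone. LHCA1 has 4 annotated chains, and all 753 of its chain-matching reads had the 3-intron chain. PSAN, PSBP1, PSBQ1, PSBQ2 and LHCB2.1 likewise had no read on their other chains. LHCA3, LHCB4.2 and PSBS had at most 3.13% in any replicate on theirs. Across 58 introns of the 29 genes with introns, 0.546% ± 0.0121 (SD, n = 2) of spanning reads retained the intron, at most 3.28% in any one (the intron of LHCB2.3, 4 of 122 reads). No value over all genes stands beside the use of 1 chain or the intron retention. Whether either is particular to these genes cannot be said.

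Apart from reads that lacked 5′ exons or kept an intron, no exon chain outside the annotation reached 10% of a gene's reads in either replicate. The most frequent of these were in PSBS (6.08% and 5.30%) and LHCB5 (2.36% and 2.56%), and in each the junction was placed 1 nt downstream of the annotated one at both sides, which gives the same spliced sequence. Reads that lacked the first exon or exons were 8.16% and 6.37% of member reads. As a median over genes they were 7.96% of reads, against 8.10% over all nuclear genes. They reached 10% in both replicates in 7 of the 29 genes with introns (24.1%), close to the 24.6% of 4974 nuclear genes with introns. These were PSAH1 (16.9% and 23.1%), LHCB2.2 (16.4% and 11.8%), LHCB4.1 (14.4% and 11.05%), PSAO (14.1% and 10.9%), PSBP1 (12.5% and 10.7%), LHCB2.1 (10.6% and 13.6%) and PSAE2 (10.6% and 10.4%). In the 5 genes without introns, reads covering under 50% of the annotated length played that part, up to 15.5% and 22.5% in PSBY and 13.7% and 10.9% in PSAD1.

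At the 3′ end most genes used several sites. Counting only reads with a 3′ label, and merging positions within 10 nt, 30 of 34 genes (88.2%) had at least 2 sites with 10% or more of their reads in both replicates, where 72.1% of 1820 nuclear genes with enough labelled reads had at least 2. At least 3 sites were seen in 20 of the 34 genes. No share over all genes stands beside that count, so whether it is high cannot be said. Among 598 genes of like depth, with 50 to 600 labelled reads in each replicate, the share was 72.7%. With sites merged at 25 nt the members came to 61.8% and all genes to 60%. The difference from all genes was thus seen at the 10 nt setting and hardly at 25 nt.

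The 4 genes with 1 such site were LHCB2.3 (89.1% and 87.3% at it), PSBR (88.1% and 84.7%), PSAD1 (83.9% and 81.7%) and PSAD2 (75% and 80%). PSBP1 was the most divided, with 5 sites past 10% between 61 nt before and 42 nt after its main one, which held 26.9% and 23.9%. PSBS had 4 such sites. PSBO1 placed 34.2% and 31.8% at its main site and 27.5% and 30.3% at one 38 nt upstream.

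The second site of the other genes lay 11 to 73 nt from the first. Among antenna genes it held, as a mean of both replicates, 19.9% in LHCA1 (73 nt downstream), 27.3% in LHCA2, 18.7% in LHCA3 and 29.5% in LHCA4. It held 24.3% in LHCB2.1, 27.9% in LHCB2.2, 18.7% in LHCB3, 28.8% in LHCB4.1, 26.3% in LHCB4.2, 23.8% in LHCB5 and 17.7% in LHCB6. In the PSA genes it held 15.6% in PSAE1, 33.0% in PSAE2, 22.6% in PSAF, 16.6% in PSAG, 21.8% in PSAH1, 22.9% in PSAH2, 14.96% in PSAK, 30.2% in PSAL, 15.6% in PSAN and 17.1% in PSAO. These shares were of like size in photosystem II subunits: 16.0% in PSBO2, 21.8% in PSBQ1, 13.6% in PSBQ2, 25.1% in PSBW (65 nt downstream), 18.4% in PSBX, 27.7% in PSBY and 24.7% in PSBS.

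The main labelled site lay 60 to 192 nt after the stop codon, a median of 103.5 nt. Found in each replicate alone, it was the same nucleotide in 28 of 34 genes and lay within 10 nt in 31. In replicate 1 alone it lay 65 nt downstream of the pooled site in PSBW and 13 nt upstream in PSBY. In replicate 2 alone it lay 16 nt downstream in LHCB4.1. The letters AATAAA, the canonical poly(A) signal of animals, stood between 39 and 5 nt before the pooled main site in none of the 34 genes, against 14.01% of 1820 genes.

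The 3′ label stood on under 80% of reads in both replicates in 4 of 34 genes (11.8%), against 11.7% of 5507 nuclear genes, and in these 4 it was lost mostly at a single place each. As the study describes its processing, a 3′ label is taken away where the end fails to align or precedes A-rich genome sequence. It was missing from 42.2% and 41.6% of LHCA3 reads, 38.6% and 29.0% of LHCB3 reads, 40% and 45.2% of PSAF reads and 35.6% and 35.5% of PSAD2 reads, while the median gene among the 34 kept it on 98.0% of reads (95.5% over all genes). Of 308 unlabelled LHCA3 reads, 247 ended within 10 nt of a position 22 nt before the main labelled site. In LHCB3 334.5 of 339.5 did so 27 nt after the main site, in PSAF 234 of 240 did so 16 nt after it, and in PSAD2 57 of 64 did so 76 nt before it. The 20 genome bases that follow each of these positions are shown with A and G in capitals (coding strand, RefSeq TAIR10.1).
LHCA3: AAAcGAAAAAActtttAGGA
LHCB3: AcAGAAGAAGtctcAAAAAt
PSAF: AAGtAGAAAGAAttAtGGct
PSAD2: AAAcAAAAcAAAtttAAAAA
They lie at chr1:22701288-22701307 (plus strand) for LHCA3, chr5:22039471-22039490 (plus strand) for LHCB3, chr1:11214880-11214899 (minus strand) for PSAF and chr1:753473-753492 (minus strand) for PSAD2. The A count was 11, 11, 9 and 15 of 20 in this order, against 7, 8, 7 and 3 after the main labelled sites of the same genes. Labelled reads ended there too, 83.5 within 10 nt in LHCA3, 32 in LHCB3, 33 in PSAF and 7 in PSAD2. Whether the unlabelled reads end at cleavage sites or were primed inside a longer RNA was not tested.

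**Figure D5:**
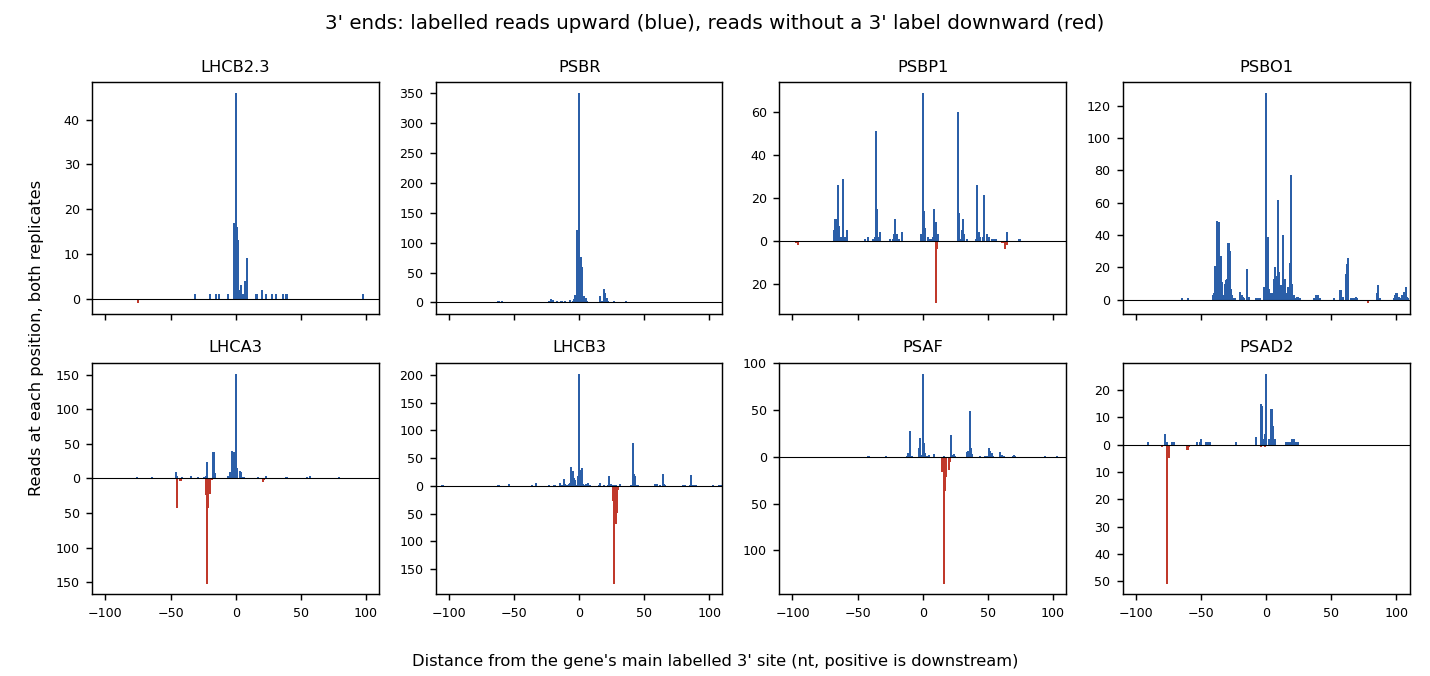
Reads ending at each position, both replicates summed, against the distance in nt from the gene's main labelled 3′ site, for 8 genes picked after their values were seen; labelled reads point up and reads without a 3′ label point down. LHCB2.3 and PSBR end at 1 site, PSBP1 and PSBO1 at several, and in LHCA3, LHCB3, PSAF and PSAD2 the unlabelled reads gather at 1 place.

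Other photosynthetic genes, 24 in number and listed by function, were mostly read less. All 24 had reads, 17 had at least 20 and 11 stood above PSAE2. PETE2, the major plastocyanin gene, led them with 168 and 148 reads, or 631 ± 34.2 RPM (SD, n = 2), near the median member. Its counterpart PETE1 had 8 and 10 reads. Antenna relatives were scarce: LHCB4.3 had 23 and 19 reads, LHCA5 13 and 18, LHCA6 7 and 10, and LHCB7 none and 5. The least-read was PSBP2, with none in replicate 1 and 1 in replicate 2.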

How the data were processed

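The 2 Col-0 floral bud libraries were analysed from the aligned read structures that the authors deposited, 1 file per replicate. The values are expected counts: per the paper's methods the authors made FLNC reads with ccs, lima and isoseq3 refine, requiring a poly(A) tail, aligned them to TAIR10 with minimap2 and converted them with Bookend, which records 5′ and 3′ labels. The study describes the removal of 3′ labels at A-rich sites elsewhere in its text, and fractional values were taken to be reads that align to several places. Versions are not given in the sources used here. The deposited expected counts were summed unrounded. No count model was run, since there is 1 condition.

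Exons, start codons and sequences came from RefSeq TAIR10.1. All reads lay within its chromosome lengths, 99.65% of junction crossings had GT or GC to AG ends and 99.26% were annotated. Depth was 256260 and 243718 gene-assigned reads, the base of RPM, and 3 reads correspond to 11.7 and 12.3 RPM. Wilson 95% intervals cover counting error only. Start regions merged positions within 20 nt and 3′ sites within 10 nt. A gene needed 20 reads over both replicates, 20 cap-labelled reads over both, or 20 labelled reads in each, for the respective measure. Splice boundaries were matched exactly, with 10 nt of slack at the ends of truncated reads. Protein identity came from translated annotated coding exons, aligned globally with Biopython 1.88 under Python 3.11.15 and numpy 2.4.6. Assignment was run on simulated data and recovered 100% of 1973 structures with the annotated chain and of 1465 without the first exon. These structures were built from the annotated exons, so this checks the code and not the calls on real reads. Simulated 3′ sites lay further apart and held larger shares than the closest and smallest sites called here. Finding of such close or small sites was not tested.

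The members and lists were chosen with earlier results of these data known. Genes were named with values when they were copies of a family, the most- or least-read of a class, or held 10% of reads in another chain, a second 3′ site or a second start region in both replicates. Alternatives covered the read base, length, labels, chain, window sizes and each replicate alone.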

Additional observations from a re-analysis of the deposited data

How the results depend on the processing

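No paired analysis was possible because both libraries belong to 1 group and there is no second group to pair them with. The ratio of photosystem I to photosystem II reads stayed below 1 under each alternative: 0.815 per kb of annotated and 0.812 per kb of observed spliced length (the latter chosen after seeing the data), 0.856 on cap-labelled reads, 0.797 without PSBS, and 0.348 with the LHCB1 genes added (an alternative chosen after seeing the data), and it kept within 1 SD on annotated chains and on whole counts. The antenna share of member reads was 43.6% per annotated kb, 42.8% per observed kb and 52.4% on cap-labelled reads, so which side of an even split it fell on changed with the setting. The LHCB1 genes were left out of this share in every setting. The members' summed depth was 27490 RPM when scaled to all aligned reads and 25519 RPM per annotated and 34281 RPM per observed kb. On cap-labelled reads alone the leading copy held 43.4% of LHCB2 reads, 75.8% of PSAE, 61.8% of PSAH, 88.9% of PSBO and 58.0% of PSBQ; PSAD1 and LHCB4.2 moved by less than 1 SD. The share with an annotated chain was 5.89% with both ends within 100 nt, 1.53% within 50 nt and 90.5% without masked reads, and the cap share was 65.6% on annotated chains. The median share of starts was 51.9% within 2 nt, 74.96% within 10 nt and 58.0% over all labelled 5′ ends, against 69.4% in the main setting. Taking the start from the other replicate, chosen after seeing the data, left it within 1 SD. TATA in place of TATAAA or TATATA gave 11 genes in place of 3, and a 20% minimum gave 16 genes with several 3′ sites in place of 30. No share over all genes stands beside the count at the 20% minimum. Each replicate alone gave 0.760 to 0.772 for the ratio and 30 to 31 genes with several 3′ sites; with 2 libraries the distance of each from their mean is a fixed share of the SD, so this is no check of stability. Every SD here rests on 1 difference, and genes near 100 reads, such as PSAE2 and PSAH1, have wide counting intervals on shares of their capped or labelled reads.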

Other observations

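Antisense reads over the exons were counted for these genes: 13 of the 34 had any. LHCB6 had the most (8 in replicate 1 and 10 in replicate 2), followed by PSBR (7 and 8) and LHCB4.2 (6 and 7). No share over all genes stands beside this count, so whether it is low or high cannot be said. The most-used unlabelled 3′ end outside the 4 genes described above that gathered over 30 reads in 1 place was in LHCB6 (54 of 72 unlabelled reads), PSAG (37 of 44) and PSBP1 (33 of 45), with 9, 12 and 12 A in the 20 bases that follow. In PSAG the unlabelled share differed between replicates, with 9.88% and 21.4%.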
